A study of Homo sapiens with 18 samples.

Results

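The CpGs described here were unmethylated in the prostate cancer cell line PC3 and methylated in both other cell lines of the study, HCT15 and DU145. They were chosen from reduced representation bisulfite sequencing (RRBS), which reads methylation CpG by CpG in the CpG-rich part of the genome. A CpG was a member when it lay on an autosome, had at least 20 reads in all 3 RRBS libraries, and was at most 20% methylated in PC3 and at least 80% methylated in HCT15 and DU145. This rule selected 7388 of 953749 autosomal CpGs with that coverage. The rule needs methylation in HCT15 and DU145, which 374411 CpGs showed, so the members are 1.97% of the CpGs that could have been chosen. HCT15 comes from a colorectal carcinoma, while DU145 and PC3 come from prostate cancer, and all 3 were grown in the supplier's complete medium with no treatment named. The labels name ATCC as the source of all 3 lines, whereas the methods of the study name a hospital for DU145, with a higher passage number than for PC3 and HCT15. Each line was sequenced once by RRBS, without replicates, and its DNA was captured once with each of 5 methyl-CpG binding domain (MBD) kits, MethylMagnet, MethylCollector, MethylCollector Ultra, MethylCap and MethylMiner, giving 15 MBD-seq libraries. As each line is a single cell stock, what belongs to a line cannot be told apart from what belongs to that stock. For HCT15, the only colorectal line, the same holds for its tissue of origin. By the rule, the members were methylated in DU145, the other prostate cancer line.

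In vertebrate genomes most CpGs outside CpG islands carry methylation, and most CpG islands at gene starts do not. Cancer cells typically show the opposite in places: islands gain methylation, while long stretches of the genome, often poor in active genes, lose part of it. A methylated promoter island is usually found with a silent gene, but an unmethylated one need not belong to an active gene, and no expression was measured here. Bisulfite treatment turns unmethylated C into T, so a T in the DNA of the line itself is also read as an unmethylated C. MBD proteins bind methylated CpGs and bind dense groups of them best, so MBD-seq depth is highest where many methylated CpGs lie close together.

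The members were arranged in different ways, as the following stretches of the reference (GRCh37, plus strand, 5′ to 3′) show. The CpGs in capitals are members, and all other letters are in lower case. The first stretch is in IRX2, a homeobox transcription factor gene, at chr5:2751294-2751493, where 24 of the 38 CpGs are members. The second is in an exon of WNK2, a gene for a serine/threonine kinase, at chr9:95947324-95947523, with 21 of 31 CpGs. The third is in an exon of TBX3, a T-box transcription factor gene, at chr12:115112262-115112461, with 17 of 32 CpGs. The fourth lies in the long non-coding RNA gene RENO1 at chr17:79316444-79316643, with 17 of 28 CpGs. The last is the surrounding of a single member in CPNE7, a copine gene, at chr16:89642954-89643074. It is shown for contrast, as the isolated member outside untranslated regions with the most methylated CpGs of HCT15 and DU145 around it.
IRX2: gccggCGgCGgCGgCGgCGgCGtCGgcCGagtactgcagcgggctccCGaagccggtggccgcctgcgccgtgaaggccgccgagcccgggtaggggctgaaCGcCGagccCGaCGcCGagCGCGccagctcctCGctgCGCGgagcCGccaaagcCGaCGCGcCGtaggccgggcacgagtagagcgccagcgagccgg
WNK2: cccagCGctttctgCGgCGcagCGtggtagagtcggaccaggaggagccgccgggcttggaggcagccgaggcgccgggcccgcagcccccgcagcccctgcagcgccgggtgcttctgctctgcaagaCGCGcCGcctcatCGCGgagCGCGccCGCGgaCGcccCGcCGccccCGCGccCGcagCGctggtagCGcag
TBX3: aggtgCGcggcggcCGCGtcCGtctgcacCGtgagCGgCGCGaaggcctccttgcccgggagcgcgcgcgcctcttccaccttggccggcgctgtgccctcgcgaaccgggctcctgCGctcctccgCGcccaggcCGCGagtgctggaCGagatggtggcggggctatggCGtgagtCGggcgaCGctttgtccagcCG
RENO1: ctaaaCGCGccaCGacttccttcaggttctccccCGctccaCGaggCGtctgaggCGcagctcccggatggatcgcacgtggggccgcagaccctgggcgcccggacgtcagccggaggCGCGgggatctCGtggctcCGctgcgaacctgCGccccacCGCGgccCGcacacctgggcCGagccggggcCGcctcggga
CPNE7: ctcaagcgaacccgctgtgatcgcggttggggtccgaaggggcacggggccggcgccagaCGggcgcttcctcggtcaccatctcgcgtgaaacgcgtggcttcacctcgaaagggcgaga

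Over all CpGs with 20 reads in the IRX2 stretch (27 CpGs), the mean methylation was 97.9% in HCT15, 91.8% in DU145 and 5.43% in PC3. The TBX3 stretch (23 CpGs) had 97.2%, 98.5% and 14.0% in the same order. In the WNK2 stretch (25 CpGs) the means were 97.9%, 96.8% and 14.3%, and in the RENO1 stretch (22 CpGs) they were 91.8%, 93.6% and 8.74%. In these 4 stretches most CpGs that were read were unmethylated in PC3 and methylated in the other lines. The stretches were chosen among the largest clusters as the 200 bp with the most members outside untranslated regions. Their means therefore follow from the choice. In CPNE7 the member was read as 87.3% methylated in HCT15 (71 reads), 100% in DU145 (162 reads) and 0% in PC3 (20 reads). The other 15 CpGs of that stretch averaged 93.5%, 98.7% and 91.4%. Their lowest value was 25% in PC3, 82.4% in HCT15 and 95.2% in DU145, so the surroundings in PC3 were mostly but not wholly methylated.

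The methylation values of the members are set by the rule and are given as a description. The mean over the 7388 members was 93.7% ± 5.91 (SD over CpGs) in HCT15, 95.1% ± 5.46 in DU145 and 8.63% ± 6.33 in PC3. Their median coverage was 33 reads in HCT15, 72 in DU145 and 50 in PC3. In PC3, 1194 members (16.2%) had no methylated read at all, and 132 members had none in PC3 and only methylated reads in both other lines. In 5 members more than 500 reads were counted in at least 1 line, up to 4632 in DU145, and such depth can come from a sequence present in many copies.

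Most CpGs that were methylated in HCT15 and DU145 were also methylated in PC3. Of the 374411, 70.6% were between 90 and 100% methylated in PC3, 1.17% lay between 0 and 10% and 0.804% between 10 and 20%. The number of CpGs fell steadily from high to low methylation and rose again only in the lowest class. Near the limit of the rule in PC3, 703 members had 18 to 20% methylation, and 520 CpGs just outside had above 20 to 22%. For HCT15 there were 385 members at 80 to 82% and 192 CpGs just below 80%, and for DU145 275 and 242.

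**Figure D1:**
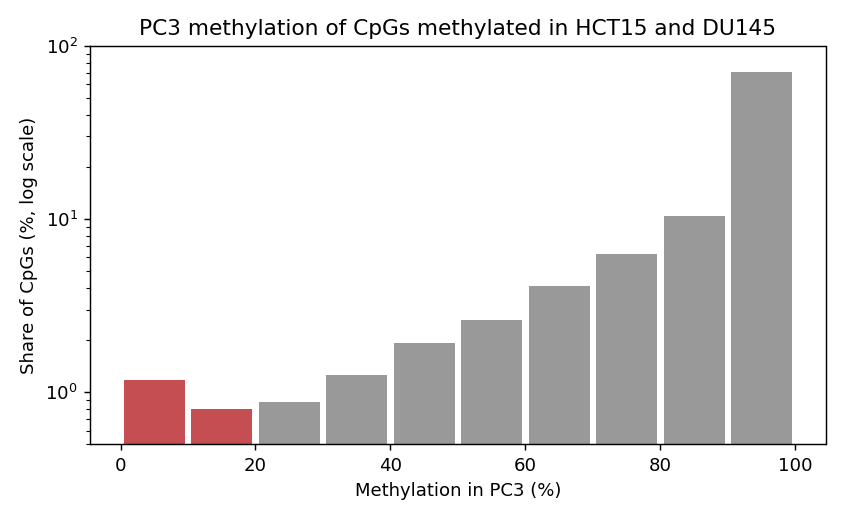
Share of the 374411 CpGs methylated in HCT15 and DU145 (vertical axis, percent on a log scale) by their methylation in PC3 (horizontal axis, percent, classes of 10). The red classes hold the members, 1.17% and 0.804% of the CpGs, and the highest class holds 70.6%.

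The members were found in genes and between genes, with more of them at promoters than their number of candidates gives. A promoter is taken here as 1000 bp before to 500 bp after the 5′ end of a protein-coding gene. Of the members, 11.6% lay in a promoter, 16.1% in an exon, 31.2% in an intron, 13.2% in a gene of another type and 27.8% between genes. Among all CpGs methylated in HCT15 and DU145 the promoter share was 3.797%. Counted the other way, 6.04% of the promoter CpGs methylated in HCT15 and DU145 were members, against 1.57% in exons, 1.44% in introns and 2.31% between genes. In promoters that also had the sequence of a CpG island (GC content of at least 55% and a ratio of observed to expected CpGs of at least 0.65 around the CpG) the share was 9.76%. By chromosome, the share ran from 1.49% on chromosome 7 to 3.85% on chromosome 18. No CpG of chromosome 22 could be examined, since the RRBS data of PC3 hold none there, and those of chromosome 21 stop at position 42485481.

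More members stood alone than in dense clusters. Clusters, defined as runs of at least 5 members with gaps of at most 1000 bp, numbered 209 and held 1838 members (24.9%). By contrast, 3043 members (41.2%) had no other member within 1000 bp. Of these, 2433 (32.9% of all members) also had at least 2 other CpGs with 20 reads within 1000 bp, and only they are called isolated below. CpGs unmethylated only in DU145, chosen by the same rule, were fewer (3827), but 65.6% of them were in clusters and 12.3% alone. CpGs unmethylated only in HCT15 numbered 2807, with 31.5% in clusters and 33.2% alone. These 3 shares come from single RRBS libraries and were not tested.

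The 2 arrangements differed in sequence and position. Of the clustered members, 80.7% had the sequence of a CpG island and 27.2% lay in a promoter, and the median GC content around them was 69.5%. Of the isolated members, 10.2% were island-like and 4.81% lay in a promoter, with a median GC content of 52.5% and a median distance of 49096 bp to the nearest start of a coding gene. Among all CpGs methylated in HCT15 and DU145, 13.6% were island-like and 3.80% lay in a promoter, near the shares of the isolated members. The methylation in PC3 averaged 6.57% at clustered members and 10.1% at isolated ones.

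Low methylation in PC3 reached beyond the members themselves. Each member was paired with the other CpGs methylated in HCT15 and DU145 around it. The other CpG was a member too in 60.4% of pairs at 1 to 10 bp. This share was 36.1% at 51 to 200 bp and 30.5% beyond 200 and up to 1000 bp. It fell to 7.50% at 1 to 10 kb, 3.61% at 10 to 100 kb and 2.25% at 100 kb to 1 Mb, where 1.97% is the share of single CpGs over all. CpGs near a member that were not members themselves averaged 34.2% in PC3 at 1 to 10 bp, against 90.1% in HCT15 and 85.8% in DU145. At 100 kb to 1 Mb the same means were 56.2%, 61.7% and 61.8%. In all these values a CpG counts once for each member near it, so dense clusters weigh more. Pairs of neighbouring CpGs can also share reads, so the values are a description.

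Isolated members were seldom single unmethylated CpGs in methylated surroundings. With at least 2 other CpGs with 20 reads within 200 bp, 2341 isolated members could be examined, and the median methylation of these surroundings was 85.3% in HCT15, 91.2% in DU145 and 53.5% in PC3. The surroundings were between 20 and 80% methylated in PC3 for 2005 of them (85.6%), at least 80% methylated for 270 (11.5%), as in CPNE7, and at most 20% methylated for 66 (2.82%). Whether the 270 carry a T in the DNA of PC3 was not tested.

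**Figure D2:**
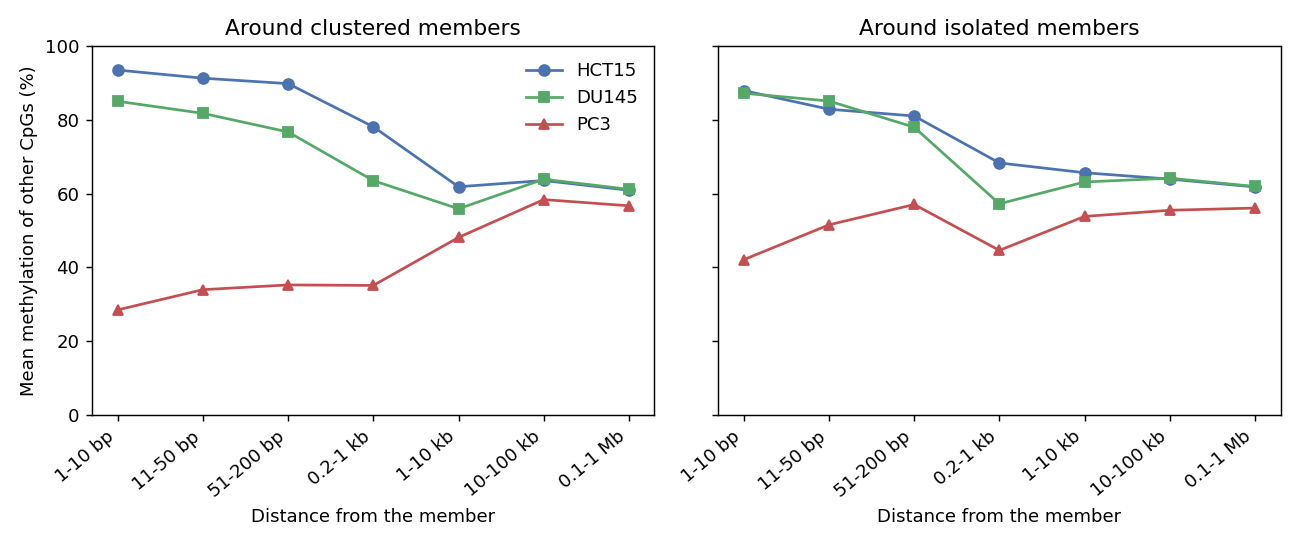
Mean methylation (percent) of CpGs that are not members, by their distance from a clustered member (left) or an isolated member (right), in HCT15 (blue circles), DU145 (green squares) and PC3 (red triangles). PC3 lay lowest in all classes of distance, with 28.5% at 1 to 10 bp around clustered members and 42.1% around isolated ones. A CpG counts once for each member near it.

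The clusters were short, and most overlapped a gene. Their median size was 7 members over 260 bp, with lengths from 13 to 2462 bp, and 62 clusters had at least 10 members and 11 at least 20. Of the 209 clusters, 163 (77.99%) overlapped a protein-coding gene, 86 (41.1%) had the start of one within 1000 bp and 160 (76.6%) were mostly island-like. Most candidates were genic too: of all CpGs methylated in HCT15 and DU145, 3.80% lay in a promoter, 20.3% in an exon and 42.7% in an intron. Over all CpGs with 20 reads in a cluster, members or not, the median of the means was 95.4% in HCT15, 93.2% in DU145 and 14.5% in PC3. In 147 of the clusters the mean in PC3 was at most 20%.

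The cluster with the most members, 53 of the 88 CpGs with 20 reads, spanned chr5:2750409-2752497 and covered the start of IRX2 and of its divergent RNA gene IRX2-DT. Another was in GATA2, the gene of a zinc finger transcription factor of blood and vascular development, with 30 members at chr3:128209550-128212011. WNK2 had 24, and FZD8, encoding a Wnt receptor, had 23 in its coding exon (chr10:35928941-35929296). PTPRT, a receptor tyrosine phosphatase gene, and TWIST1, encoding a basic helix-loop-helix factor of mesenchymal development, had 23 each at their starts. TBX3 and RENO1 followed with 22 each. The nearest start of a protein-coding gene to the RENO1 cluster, that of SLC38A10, was 47043 bp away.

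At least 1 member lay in 299 of the 4048 promoters with a CpG methylated in HCT15 and DU145 (7.39%). At least 3 members, the number used here to call a promoter hit, lay in 101 of the 1600 promoters with 3 such CpGs (6.31%), and 21 promoters had at least 10. In 62 promoters with at least 3 members, the members were the majority of the CpGs methylated in HCT15 and DU145. Protein-coding genes with a member anywhere in the gene or promoter numbered 1596. The 25 promoters with the most members averaged between 76.8 and 98.2% in HCT15, between 57.7 and 99.1% in DU145 and between 11.0 and 47.1% in PC3, counting all CpGs with 20 reads. These means include the members, and the promoters were chosen for them, so the low values in PC3 follow from the choice.

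IRX2 led with 30 members among 35 promoter CpGs methylated in HCT15 and DU145. Its promoter averaged 96.0% ± 5.88 in HCT15, 81.1% ± 18.3 in DU145 and 12.4% ± 22.3 in PC3 (SD over 51 CpGs). The MBD-seq depth over its members, in fragments per CpG, was 1.5, 2.83, 2.1, 2.33 and 1.43 in HCT15 for MethylMagnet, MethylCollector, MethylCollector Ultra, MethylCap and MethylMiner. In DU145 it was 0.733, 0.8, 1.87, 3.23 and 0.667. In PC3 it was 0 with the first 4 kits and 0.467 with MethylMiner, so no PC3 fragment lay over these promoter members with any kit but MethylMiner. Over all members of the IRX2 cluster, PC3 had a depth of 0.113 with MethylMagnet.

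TWIST1 had 15 members among 21 such CpGs, and its promoter averaged 95.9% ± 7.00 in HCT15, 90.2% ± 9.82 in DU145 and 18.0% ± 25.1 in PC3 (24 CpGs). With MethylCap, the depth over its members was 3.67 in HCT15, 2.53 in DU145 and 0.4 in PC3. PTPRT also had 15, of 17, with promoter means of 85.5% ± 18.5, 87.3% ± 16.5 and 15.9% ± 20.7 in HCT15, DU145 and PC3. There the MethylCap depth of PC3, 1.67, lay close to the 1.8 of HCT15 and above the 0.333 of DU145, so this kit did not separate the lines as RRBS did. DLGAP1, a gene of a postsynaptic scaffold protein, had 15 of 29, and MFSD12, a gene of a lysosomal transporter, had 14 of 17. In MFSD12 the MethylCap depth was 6.14 in HCT15, 1.86 in DU145 and 0 in PC3.

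The other promoters of the 25 had fewer members each, and no test of gene function was made. GABRA5 (11 members of 24) and GABRG3 (9 of 13) encode GABA-A receptor subunits. With limits of 0.1 and 0.9 in place of 0.2 and 0.8, GABRA5 had no member and the share in GABRG3 was 25%. CNTN3 (11 of 16) encodes a contactin, KIRREL3 (9 of 17) and IGSF21 (13 of 18) immunoglobulin superfamily proteins, and NETO1 (11 of 37) an auxiliary protein of glutamate receptors. SHISA6 (13 of 33) also encodes an auxiliary protein of glutamate receptors, while SHISA2 (10 of 15) belongs to the same family. With the stricter limits the share was 13.8% in SHISA6 and 18.2% in DLGAP1. GALNT17 had 14 of 25, FRMD4B 12 of 16, C8orf34 11 of 16 and ADAMTS18, a metalloprotease gene, 11 of 24. ADHFE1, an alcohol dehydrogenase gene, had 13 of 16, all shared with an overlapping gene that starts 6 bp away (ENSG00000285791). CUX2, a homeobox gene, had 10 of 14, NRN1L 10 of 14, VAV3, a guanine nucleotide exchange factor gene, 10 of 18, and FREM3 10 of 22. KCNJ12, a potassium channel gene, and PDLIM4 had 8 of 11 each, and KCNJ12 is uncertain because a near-identical copy, KCNJ18, exists. The NETO1 promoter kept the most methylation in PC3, with 47.1% ± 36.4.

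The means of the 25 promoters varied more in DU145 than in HCT15. CUX2, for example, averaged 90.8% ± 14.3 in HCT15, 57.7% ± 27.0 in DU145 and 19.1% ± 21.6 in PC3. Members in 21 of the 25 were all island-like, and NRN1L had none that was. With MethylCap, the depth over the members was 0 in PC3 in 12 promoters, in DU145 in 3 and in HCT15 in 0, and PC3 was below both other lines in 13. With MethylMagnet, MethylCollector, MethylCollector Ultra and MethylMiner, PC3 was below both in 2, 10, 5 and 8. Over the promoter members of IRX2, ADAMTS18, NRN1L and VAV3 no PC3 fragment was found with any of the 4 kits other than MethylMiner. In ADAMTS18 and NRN1L the PC3 depth over these members was 0 with MethylMiner too. As the libraries differ in size, depths of 0 say little in the smaller ones: with MethylMagnet, DU145 was at 0 in 22 of the 25 promoters.

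**Figure D3:**
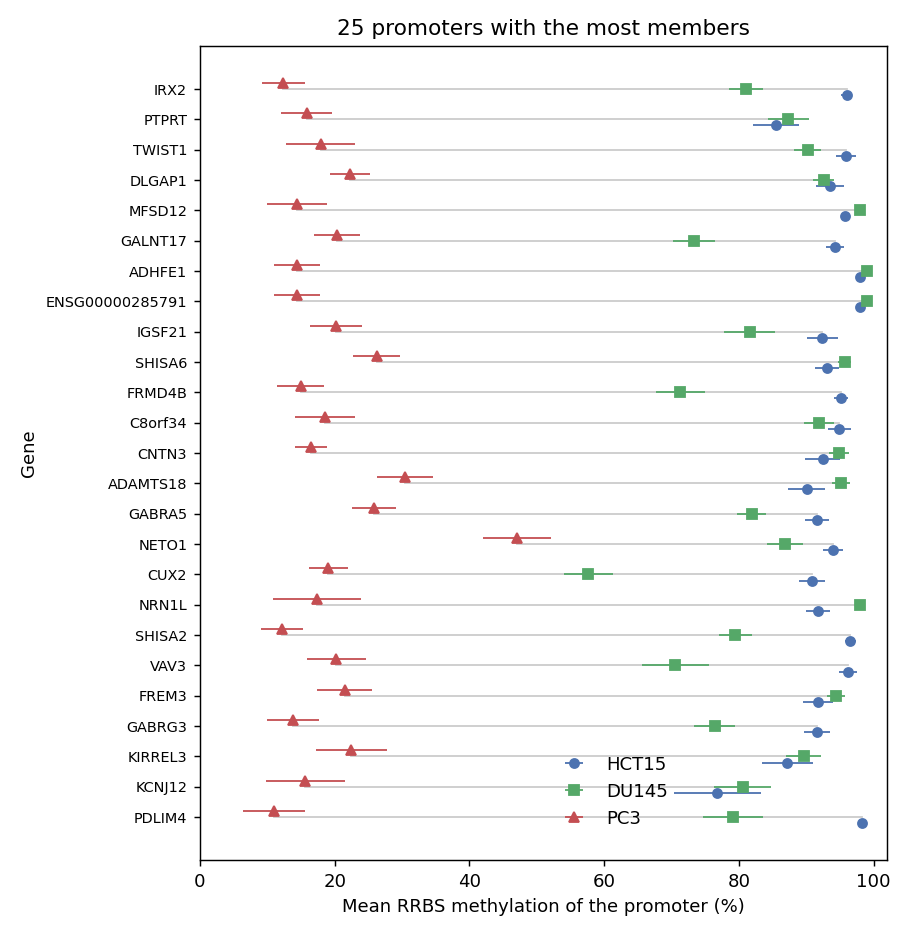
Mean RRBS methylation (percent) of the 25 promoters with the most members in HCT15 (blue circles), DU145 (green squares) and PC3 (red triangles), over all CpGs with 20 reads, with the standard error over CpGs as bars. PC3 lay lowest in all 25, from 11.0% in PDLIM4 to 47.1% in NETO1.

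Inside genes and outside promoters, many members were counted in PRDM16 (38 of 591 CpGs methylated in HCT15 and DU145), DLGAP2 (36 of 182), GATA2 (30 of 66) and WNK2 (27 of 138). PRDM16 and GATA2 encode transcription factors, and DLGAP2 encodes a postsynaptic scaffold protein like DLGAP1. The share was 45.5% in GATA2 and 6.43% in PRDM16, against 1.97% over all.

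The promoters of 15 gene lists were examined, and the share to read them against is the 7.39% of promoters given above. Among mesenchymal genes 3 of 8 promoters with a CpG methylated in HCT15 and DU145 held a member: TWIST1, CDH2 and COL5A1. Of the 45 such CpGs in the promoters of the list, 23 were members, all of them in these 3 promoters. CDH2 encodes N-cadherin, and all 6 of its such CpGs were members. Its promoter averaged 97.3% ± 3.96 in HCT15, 83.4% ± 11.8 in DU145 and 0.184% ± 0.520 in PC3 (8 CpGs). COL5A1, a fibrillar collagen gene, had 2 members, and its promoter was already intermediate in DU145, with 47.6% ± 26.3 against 83.4% ± 19.3 in HCT15 and 15.5% ± 22.2 in PC3. None of the 6 epithelial junction and keratin promoters, of the 2 of the prostate lineage or of the 5 neuroendocrine ones held a member. These lists have too few such promoters to set them against the 7.39% or the mesenchymal list, and no list was tested.

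Among germline genes 1 of 13 such promoters held members, that of the tubulin gene TUBA3C with 3 of 11, and its mean in PC3 was 46.4%. Among colon lineage genes 1 of 3 did, that of CDX1, an intestinal homeobox gene, with 2 of 36 CpGs. The CDX1 promoter as a whole was methylated in PC3, with a mean of 86.0% ± 20.04 against 80.03% ± 19.9 in HCT15 and 97.5% ± 3.40 in DU145. In the clustered protocadherins 1 of 15 did, PCDHA8, with all 5 of its CpGs methylated in HCT15 and DU145 being members and a mean of 20.3% in PC3. The zinc finger (ZNF) genes had 5 of 89, with 6 members in ZNF160, ZNF132, ZNF273, ZNF610 and ZNF844. No promoter with a member was found among the 21 HOX, 12 olfactory receptor, 5 matrix protease, 4 keratin-associated protein, 3 interleukin and chemokine, 2 S100 and epidermal differentiation and 1 defensin promoters with such CpGs. The last 5 lists have too few such promoters to say more.

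On the scale of a megabase, the share of members differed between windows. Of 1544 windows of 1 Mb with at least 50 CpGs methylated in HCT15 and DU145, 142 (9.20%) had a share of members of at least 3 times the overall one, that is 5.92%, with members in at least 3 separate stretches of 10 kb. These domain windows held 1942 members (26.3%) and 4.86% of the CpGs methylated in HCT15 and DU145. As the windows were chosen for their share of members, this excess follows from the choice and was not tested. In 444 windows there was no member. The CpGs methylated in HCT15 and DU145 had a median of the window means of 69.1% in PC3 in domain windows, from 48.1 to 83.8%, and of 90.2% in the other windows. These means include the members, so the lower value in domain windows follows at least in part from the choice. Joined with their neighbours, the 142 windows made 113 domains, of which 24 had at least 2 windows and 3 at least 3, the longest being 4 Mb. Of the 209 clusters 59 lay in domains, and 609 of the 1942 members in domains were in clusters.

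The longest domains were on chromosome 17 from 10 to 14 Mb (64 members of 461 CpGs, among others in GAS7, DNAH9, SHISA6, MYOCD and 3 skeletal myosin heavy chain genes, MYH2, MYH8 and MYH13) and on chromosome 7 from 68 to 72 Mb (42 of 379, in AUTS2, CALN1 and GALNT17). The next was on chromosome 19 from 29 to 32 Mb (66 of 397, in TSHZ3, VSTM2B and ZNF536). The domain on chromosome 5 from 2 to 4 Mb, with IRX1 and IRX2, had 94 of 511, and 41 of them lay outside the IRX2 cluster. The highest shares in single windows were not domains by the definition used here, since a single cluster gave them: 23 of 52 on chromosome 7 from 19 to 20 Mb, with TWIST1, and 23 of 53 on chromosome 20 from 41 to 42 Mb, with PTPRT.

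The MBD-seq data were not used to choose the members and could therefore be tested. The 15 libraries differ strongly in size, from 9876 fragments (DU145, MethylMagnet) to 7163312 (HCT15, MethylMiner) on the autosomes, and 3 of the DU145 libraries hold under 50000. The MethylMiner libraries stand apart: at the 243123 CpGs unmethylated in all 3 lines their depth was 0.920, 1.04 and 1.28 times that at CpGs methylated in all 3 lines, for HCT15, DU145 and PC3. In the other 12 libraries this ratio was between 0.0340 and 0.120. To compare libraries of different size, the depth at the members was divided by the depth at CpGs methylated in all 3 lines (relative depth, for which 1 means captured like a methylated CpG).

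The members were captured less in PC3. The relative depth in PC3 was 0.215 with MethylMagnet, 0.218 with MethylCollector, 0.262 with MethylCollector Ultra, 0.345 with MethylCap and 0.882 with MethylMiner. In HCT15 it was 1.66, 1.18, 1.05, 0.828 and 0.850 in the same order, and in DU145 it was 1.65, 1.24, 1.22, 0.968 and 0.927. PC3 lay below both other lines with 4 of the 5 kits, and with MethylMiner it lay between them. On average over the kits PC3 was 1.78 lower on the log2 scale (difference -1.78 ± 1.15, SD over 5 kits), a ratio of 0.291. In an exact two-sided permutation test of the line labels within kits p was 0.00823 (0.0165 after Benjamini-Hochberg adjustment over 4 tests). Without MethylMiner the difference was -2.23 (p = 0.0123 in the exact test, the smallest p that 4 kits allow). The kits received the same DNA of a line, so these p-values measure the spread between captures and not between cultures.

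The share of members covered by at least 1 fragment shows the same with MethylCap, namely 79.1% for HCT15 (95% Wilson interval from 78.1 to 79.99%), 35.9% for DU145 (from 34.8 to 36.96%) and 18.5% for PC3 (from 17.6 to 19.4%). At CpGs methylated in all 3 lines, 84.6%, 38.1% and 45.0% were covered in the same order. The DU145 and PC3 libraries of this kit are of similar size, with 811203 and 932107 fragments, while that of HCT15 holds 3825379. These intervals cover counting error only, and neighbouring members share fragments, so they are too narrow. Of the 209 clusters, 139 (66.5%) had a MethylCap depth of 0 over their members in PC3, 56 (26.8%) in DU145 and 11 (5.26%) in HCT15. These counts were not scaled for library size, so the low one of HCT15 is partly that of a larger library.

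Clustered members differed more between the lines than isolated ones. At clustered members the relative depth in PC3 was 0.312, 0.306, 0.379, 0.404 and 1.25 with MethylMagnet, MethylCollector, MethylCollector Ultra, MethylCap and MethylMiner. HCT15 had 4.597, 2.46, 1.88, 1.01 and 0.978, and DU145 had 3.79, 2.51, 2.53, 1.48 and 1.25. Dense methylated CpGs were thus captured above the average of methylated CpGs in HCT15 and DU145 with the first 4 kits, and PC3 lay below both with these. The mean difference was -2.14 ± 1.51 (exact permutation p = 0.0123, adjusted p = 0.0165).

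At isolated members PC3 had 0.161, 0.209, 0.241, 0.335 and 0.749. HCT15 had 0.497, 0.579, 0.613, 0.729 and 0.840, and DU145 had 0.722, 0.537, 0.558, 0.711 and 0.805. All 3 lines were below 1 here, and PC3 was the lowest with all 5 kits. The mean difference was -1.17 ± 0.646 (exact permutation p = 0.00412, the smallest possible, adjusted p = 0.0165). The difference between both arrangements, clustered minus isolated, was -0.977 ± 0.883 (exact permutation p = 0.0165, adjusted p = 0.0165), with the larger gap at clustered members in 4 of 5 kits. Without MethylCollector it was -0.820 and no longer passed the threshold (exact permutation p = 0.0741). It also missed it with a coverage of at least 50 (exact permutation p = 0.0576) and with no replicate block (exact permutation p = 0.0539). Clusters were defined by neighbouring members, and a fragment spans neighbouring CpGs, so the definition itself favours a larger gap there.

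**Figure D4:**
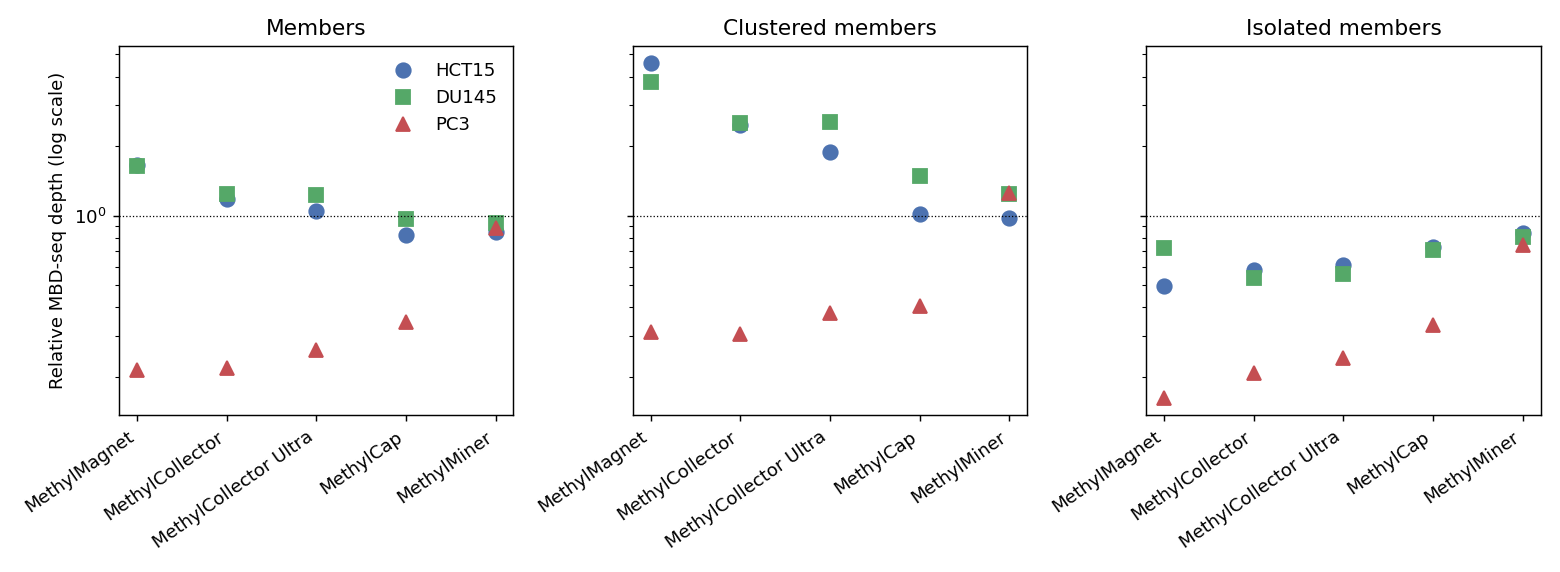
Relative MBD-seq depth (log scale, 1 is the depth at CpGs methylated in all 3 lines, dotted) of all, clustered and isolated members for each kit in HCT15 (blue circles), DU145 (green squares) and PC3 (red triangles), 1 library per point. PC3 lay below both other lines in all panels with the first 4 kits, and close to them with MethylMiner, for example 1.25 against 0.978 and 1.25 at clustered members.

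Members in promoters and outside them were both captured least in PC3 with MethylCap, but not with MethylMiner in promoters. With MethylCap the relative depth of promoter members was 0.924 in HCT15, 1.37 in DU145 and 0.445 in PC3. Outside promoters the 3 values were 0.816, 0.916 and 0.332. With MethylMiner the promoter members of PC3 had 1.29, above HCT15 with 0.786 and DU145 with 1.09.

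In windows of 1 Mb the MBD-seq depth was lower in PC3 in most domain windows with 4 of the 5 kits. The depth in PC3 was below the others in 118 of the 142 domain windows with MethylCollector, 125 with MethylCollector Ultra, 127 with MethylCap and 87 with MethylMiner, but in 67 with MethylMagnet, whose median log2 difference was 0.03. In the 1402 other windows the counts were 665, 611, 701 and 693 in the same order. With MethylMagnet the count there was 537 and the median 0.17, above that of its domain windows. The depth of each window was divided by the mean of the library and compared by limma (kit and line in the model, array weights) between PC3 and the mean of both other lines. As the kits received the same DNA of a line, the limma p-values also measure the spread between captures and not between cultures. Over all 1544 windows 548 (35.5%) were lower and 489 (31.7%) higher in PC3 at an adjusted p below 0.05. Of the 142 domain windows 101 (71.1%) were lower and 5 higher, with a median log2 difference of -0.49 against -0.00 over all windows. Copy number moves with MBD-seq depth in such a comparison. In MethylMiner the median log2 difference was -0.18 in domain windows and 0.01 in the others. Its depth at CpGs unmethylated in all 3 lines was 0.920, 1.04 and 1.28 times that at methylated ones in HCT15, DU145 and PC3. In PC3 it is therefore not a pure measure of copy number. With each window divided by its MethylMiner depth in the same line, 138 windows (8.94%) were lower in PC3, among them 63 of the domain windows (44.4%), and 124 windows were higher. Without array weights 334 windows were lower, 62 of them domain windows. The part of copy number in the remaining differences was not tested.

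Windows with a larger share of members tended to have a lower MBD-seq depth in PC3, with a correlation of -0.317 over the windows. In the 444 windows without a member the median log2 difference was 0.12, and 19.6% were called lower in PC3 by limma. With a share of 1 to 3% (413 windows) the median was -0.06 and 39.7% were lower, with 3 to 6% (207 windows) -0.23 and 53.6%, and above 10% (81 windows) -0.43 and 64.2%. The windows with TWIST1 and PTPRT, which had the highest shares, had 0.26 (limma adjusted p = 0.066) and -0.14 (limma adjusted p = 0.24). These differences were not divided by MethylMiner depth.

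**Figure D5:**
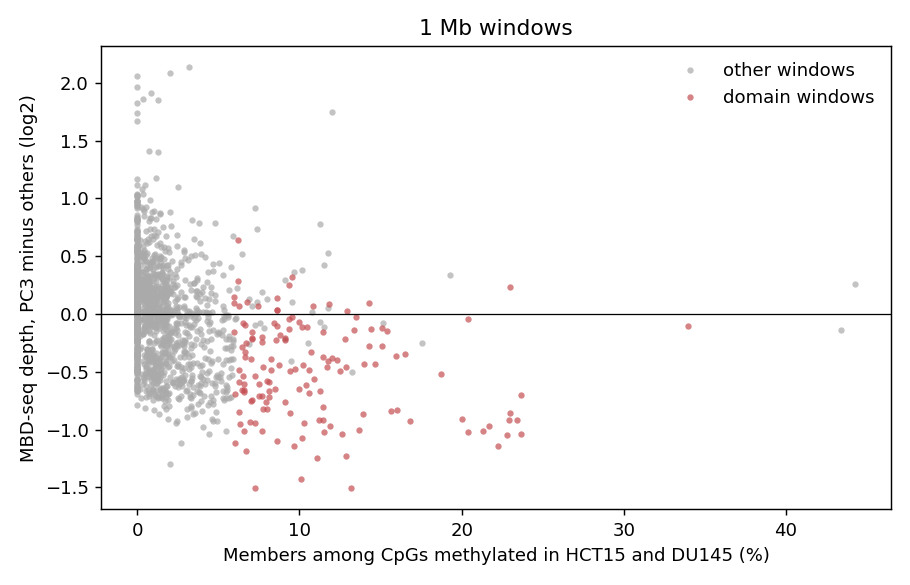
Difference in MBD-seq depth between PC3 and the mean of HCT15 and DU145 (log2, vertical axis) against the share of members among CpGs methylated in HCT15 and DU145 (percent, horizontal axis) in 1544 windows of 1 Mb. Domain windows are red and have a median of -0.49, and the other windows are grey, the grey points at the far right being windows with a single cluster.

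The 4 domains named above differed in the limma fits. On chromosome 5 the window with IRX2 (2 to 3 Mb) had a log2 difference of -0.92 (SE 0.0901, adjusted p = 2.3e-07) and the next one -0.95 (SE 0.0947, adjusted p = 2.8e-07), and after division by MethylMiner depth they had -0.74 (adjusted p = 0.00039) and -0.84 (adjusted p = 0.00014). On chromosome 17 all 4 windows were lower by 0.91 to 1.10 on the log2 scale, but by 0.22 to 0.32 after the division, where none had an adjusted p below 0.05. On chromosome 19 the 3 windows were lower by 0.70 to 0.97, and after the division 1 of them was called (-0.53, adjusted p = 0.018), while the others had -0.12 (adjusted p = 0.41) and -0.22 (adjusted p = 0.17). On chromosome 7 the 4 windows of the domain were lower by 0.44 to 0.76, and the 4 were called lower after the division as well. Without array weights 1 of these 4 was called.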

How the data were processed

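RRBS was done once for each of 3 cell lines, and MBD-seq once for each of 5 kits and 3 lines. The RRBS files hold, as deposited, 2 counts for each CpG of hg19, methylated reads and total reads, with strands summed and a total of at least 6, and the aligner is not given in the sources used here. The MBD-seq files hold a signal made by the authors, the unscaled depth (coverage) of fragments mapped with Bowtie to NCBI build 37 as pairs within 400 bp, with duplicates collapsed.

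Methylation is the percent of methylated reads. Genes come from GENCODE 44 on GRCh37. The depth of a library at a set of CpGs was summed, 0.5 was added, and the mean per CpG was divided by that at CpGs at least 80% methylated in all lines. Differences were tested by permuting lines within kits. Kit numbers pair libraries because a kit is a shared protocol, and the kit was the block. Windows were fitted with limma on log2(relative depth + 0.1), so a fold change of a shallow window is understated. Each test was first tried on simulated data. The precision of RRBS is set by its coverage, with 1334709 to 1712853 autosomal CpGs at 20 reads per library. Software was Python 3.11.15, numpy 2.4.6, pandas 2.3.3, matplotlib 3.10.9, R 4.3.3 and limma 3.58.1.

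The members, gene lists and tests were chosen with earlier results of these data known. Named genes are the 25 promoters with the most members (at least 5), the 5 genes with the most members elsewhere, list genes with a member in the promoter, and genes of the 10 largest clusters and 5 longest domains. Some of these items are not reported here. CPNE7 and the windows of highest share were chosen after their values were seen. Alternatives changed coverage, methylation limits, scaling, kits, block, window, cluster and promoter definitions.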

Additional observations from a re-analysis of the deposited data

Results flagged for a closer look

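The relative depth at the members in PC3 was 0.882 in the MethylMiner library and between 0.215 and 0.345 in the other 4 kits, a gap that Dixon's criterion marks as far from the rest. At clustered members the MethylMiner library of PC3 was marked too, with 1.25 against 0.306 to 0.404. Of 9 groups examined 2 were marked, and about 1 in 20 would be by chance. The PC3 difference was larger at clustered than at isolated members by -0.977 on the log2 scale (exact permutation p = 0.0165), a difference that was tested directly. It missed the threshold with a coverage of 50 (exact p = 0.0576), with no replicate block (exact p = 0.0539) and without MethylCollector (exact p = 0.0741). The definition of clusters by neighbouring members in itself favours a larger gap at clustered members.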

How the results depend on the processing

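All 4 MBD-seq differences kept their sign under the 15 alternatives to each. Counts followed the thresholds. With a coverage of at least 10, at least 50, limits of 0.1 and 0.9, and limits of 0.3 and 0.7, the members numbered 13987, 1530, 2803 and 14617 and the clusters 378, 28, 84 and 436. Domain windows numbered 227, 10 and 69 under the first 3 of these, and promoters hit 166, 26, 51 and 182. Clusters of at least 3 or 10 members numbered 544 and 62. With 2 or 5 times the overall share there were 222 and 67 domain windows. Promoters of 250 or 2000 bp either side gave 57 and 204, and a minimum of 1 or 5 members 299 and 54. With limits of 0.1 and 0.9 the share of members moved in 14 of the 25 named promoters, in all 14 to a lower value, with GABRA5 at 0%, SHISA6 at 13.8%, DLGAP1 at 18.2% and GABRG3 at 25%. Leaving out each kit in turn gave differences of -2.23 to -1.49 at members, -2.72 to -1.74 at clustered and -1.42 to -0.98 at isolated members, and -1.30 to -0.76 for clustered minus isolated. The last was -0.815 with a coverage of 50 (exact p = 0.0576) and, with no replicate block, -0.977 (exact p = 0.0539). Without the block the other calls held. Against HCT15 only the 4 differences were -1.72, -2.03, -1.15 and -0.888, and against DU145 only -1.85, -2.25, -1.18 and -1.07, where the smallest exact p is 0.0625, so no call was possible. In the windows, 334 were lower and 258 higher without array weights (62 domain windows lower), and 138 lower and 124 higher over MethylMiner depth (63 domain windows lower). Leaving out each kit gave 400 to 557 lower, 322 to 489 higher and 77 to 104 domain windows lower, the lowest counts being without MethylCap. The iteration for the array weights stopped before it converged. The cause of these changes was not tested. Depth limits values of single promoters, since 3 DU145 libraries hold under 50000 fragments.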

Other observations

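Non-coding genes were hit as well. Of 1282 long non-coding RNA genes with at least 3 CpGs methylated in HCT15 and DU145 around their 5′ end, 59 (4.602%) had at least 3 members there. The same share was 6.31% in the promoters of protein-coding genes. For 23 of the 59 the start of a protein-coding gene lay within 1000 bp, as for IRX2-DT (30 members of 35), PTPRT-DT (23 of 26) and NETO1-DT (17 of 41), so that both ends share the CpGs. Of 207 microRNA genes with at least 3 such CpGs, 3 (1.45%) had at least 3 members within the same distance, among them MIR3182 with 3 of 4.

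The HOX and ZNF genes also had members outside promoters. The HOX genes held 13 of 353 CpGs methylated in HCT15 and DU145 there (3.68%), namely 7 that lie in both HOXC6 and HOXC9, which overlap, 4 in HOXA13 and 1 each in HOXC12 and HOXB13. Over all CpGs methylated in HCT15 and DU145 the share was 1.97%, and the difference was not tested. Outside promoters, 21 ZNF genes held members, led by ZNF536 with 24 of 88 CpGs methylated in HCT15 and DU145, which lies in the long domain of chromosome 19. ZNF575 followed with 7 of 11. Other ZNF genes had small shares, such as ZNF423 with 4 of 91 and ZNF516 with 2 of 123.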
